A study of Mus musculus with 16 samples.

Results

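Hepatocytes, the parenchymal cells of the liver, were profiled by RNA sequencing in adult mice with and without deletion of the transcription factor Zeb2 in endothelial cells. The hepatocyte libraries were taken by their cell type label and made up 4 of the 16 libraries of the series, with 2 under the WT label (replicates 29 and 33) and 2 under the KO label (replicates 25 and 41). The other libraries held endothelial cells (EC), Kupffer cells (KC) and hepatic stellate cells (HSC), each with 2 WT and 2 KO libraries. Mice under the KO label carried floxed Zeb2 alleles and a tamoxifen-inducible, endothelial Cre (Cdh5-CreERT2), and mice under the WT label were littermates without Cre. All mice received tamoxifen at 2 mg per day for 5 days, the livers were not challenged further, and per the study's methods the line was on an eGFP reporter background and males were used unless stated otherwise. The Cdh5 promoter drives Cre in endothelium, so hepatocytes under the KO label were not themselves the target of the deletion, and the comparison asked how hepatocyte transcripts differed when the neighbouring endothelium was targeted. Nothing in the labels ties each library to its own animal, so p-values measure the spread between these samples, which may be technical.

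Hepatocytes make most plasma proteins, including albumin, clotting factors and complement. They oxidise fatty acids in mitochondria and peroxisomes, synthesise cholesterol and bile acids, dispose of nitrogen through the urea cycle and clear drugs through cytochrome P450 enzymes. They lie beside the sinusoidal endothelium, from which they receive blood-borne substrates and paracrine signals, and many of their genes are zonated between portal and central veins, follow the daily clock or differ between males and females.

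The label fitted the markers. Albumin (Alb) was at 44746, 48117, 51549 and 59511 normalised CPM (counts scaled to 1000000 reads per library) in WT 29, WT 33, KO 25 and KO 41, the order used for all values below. Summed over 18 hepatocyte markers, the level was 150159 to 168310 CPM. Between 14665387 and 15690506 reads fell on genes in each hepatocyte library, at which 3 counts correspond to 0.191 to 0.205 CPM, and 38.2% to 47.9% of reads had been placed more than once and were not counted. Paralog families such as the major urinary proteins (Mup) are uncertain for that reason, and Csf2rb, C4b, Cyp2b9, Cyp2b13, Gstm3 and Ugt2b1 have close paralogs as well.

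Zeb2 itself was at 3.56, 1.38, 2.85 and 0.647 normalised CPM in the hepatocyte libraries, with overlapping groups and a log2 fold change of -0.49 ± 0.89 (SE). In the endothelial libraries Zeb2 was at 106 and 106 CPM under the WT label and at 199 and 130 CPM under the KO label, so the count over the whole gene was not lower there. The deletion targets 1 exon, and reads of the remaining exons can still be counted. Reads per exon were not examined, so this value checks neither the endothelial nor the hepatocyte labels. The reason for its level was not tested. The paper reported efficient deletion at the mRNA level in endothelium.

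The libraries differed in ways that the label did not follow. Digestive enzymes of the exocrine pancreas, a list of 24 genes drawn up after their values were seen, summed to 13016, 699, 108 and 7768 CPM in the hepatocyte libraries and to between 17.4 and 709 CPM in the 12 other libraries. Pancreatic lipase (Pnlip) was at 1419, 74.9, 0 and 1079 normalised CPM, high in WT 29 and KO 41 and without a read in KO 25. Of the 20 genes with the largest variance among the hepatocyte libraries, 19 were on this list, and 2210010C04Rik, at 321, 12.5, 0 and 209, had the same pattern. KO 41 also stood apart in the clock activator Arntl, which was at 48.3, 42.1, 50.7 and 9.78 normalised CPM. The clock repressor Nr1d1 was at 14.4, 81.3, 102 and 321, highest in KO 41, lowest in WT 29 and without overlap between the labels. The part of pancreatic RNA and of the time of day in the results was not tested. Euclidean distances over log2 CPM of the tested genes were 96.0 between the WT libraries, 109 between the KO libraries and 97.7 to 108 between libraries of different label, so the libraries did not group by label.

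Across 11548 genes tested, none passed an adjusted p of 0.05 in edgeR's quasi-likelihood test (0% called, smallest adjusted p 0.478). At an unadjusted p under 0.05 there were 821 genes (7.11%), of which 279 (2.42% of those tested) were higher and 542 (4.69%) lower under the KO label. DESeq2 called 31 of 12590 genes (0.246%), 9 higher and 22 lower, of which Chit1 and Gm10801 had counts in WT 33 alone. limma-voom called 0. The biological coefficient of variation was 36.8%. Both KO values lay above both WT values for 19.9% of genes tested and below them for 20.9%, and the median log2 fold change of all genes was -0.02. The values below therefore describe these libraries, and no gene is given as changed by edgeR. Leaving out KO 25 raised the edgeR count to 55 genes, leaving out KO 41 gave 3, leaving out WT 29 gave 1 (Dio1), and the test without a filter on low counts called 227.

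Among the genes with the smallest p, those lower under the KO label included a lipid carrier, the first enzyme of erythroid haem synthesis and an enzyme of peroxisomal fatty acid oxidation. Pctp, which encodes phosphatidylcholine transfer protein, was at 49.8, 54.8, 3.48 and 6.33 normalised CPM. The groups lay far apart, 52.3 ± 3.52 against 4.90 ± 2.01 (SD, n = 2 each), a log2 fold change of -3.42 ± 0.33 (SE; edgeR adjusted p = 0.478, DESeq2 adjusted p = 1.41e-16). Leaving out each hepatocyte library in turn kept it between -3.90 and -3.04. Pctp lies on chromosome 11 at 89982665 to 90002894 (GRCm38, minus strand).

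Alas2, the erythroid form of 5-aminolevulinate synthase, was at 149, 267, 25.1 and 19.1 normalised CPM, and both KO libraries lay below both WT libraries. Its log2 fold change was -3.23 ± 0.36 (edgeR adjusted p = 0.478, DESeq2 adjusted p = 7.61e-20) and stayed between -3.60 and -2.74 without each library. The globin genes did not share this pattern, as described with the blood cell genes. Outside hepatocytes Alas2 was at 30.8 and 36.4 CPM under the WT label and 12.88 and 4.94 under the KO label in endothelial cells, and at 29.7 and 13.4 against 1.04 and 2.84 in stellate cells, without overlap in either. In Kupffer cells it was at 34.5 and 21.0 against 17.5 and 35.7, with overlap. Hepatocyte markers in these libraries moved alike. Their median, relative to WT hepatocytes, was 11.2% and 23.1% in WT against 2.47% and 2.00% in KO endothelial libraries. In stellate libraries it was 3.31% and 7.32% against 0.497% and 1.25%, and in Kupffer libraries 5.26% and 8.60% against 9.11% and 12.1%. The part of hepatocyte RNA in these Alas2 values was not tested. Alas2 is on the X chromosome at 150547375 to 150570638 (plus strand).

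Ehhadh, a bifunctional enzyme of peroxisomal beta-oxidation, was at 207, 257, 97.3 and 66.0 normalised CPM, without overlap. Its log2 fold change was -1.51 ± 0.27 (edgeR adjusted p = 0.700, DESeq2 adjusted p = 0.000157). Hsph1, a chaperone of the HSP110 family, was at 63.0, 93.8, 30.1 and 22.1, 3.01-fold higher on average under the WT label (DESeq2 adjusted p = 0.00122). Csf2rb, the shared beta chain of the IL-3, IL-5 and GM-CSF receptors, was at 10.5, 14.0, 2.59 and 2.16 (DESeq2 adjusted p = 0.00482). Mup16, a urinary pheromone carrier of the uncertain Mup family, was at 38.7, 39.4, 10.00 and 11.8. In each of these genes the WT values were the higher ones.

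Genes higher under the KO label included enzymes of redox, nucleoside and carbon dioxide metabolism. The mitochondrial peroxidase Prdx3 was at 95.4, 102, 198 and 256 normalised CPM, a log2 fold change of 1.20 ± 0.22 (edgeR adjusted p = 0.700, DESeq2 adjusted p = 0.00196). Upp2, a uridine phosphorylase, was at 103, 55.6, 227 and 211. The carbonic anhydrase Car3 was at 4978, 3297, 11469 and 7925, so that even the lower KO library exceeded both WT libraries. Tuft1 was at 5.55, 3.38, 17.97 and 24.4, a log2 fold change of 2.24 ± 0.36, and Fam129b at 9.17, 4.08, 32.8 and 19.3. DESeq2 called these genes and edgeR did not, with DESeq2 adjusted p-values of 0.00141 for Upp2, 0.00588 for Car3, 0.000644 for Tuft1 and 0.0119 for Fam129b.

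**Figure D1:**
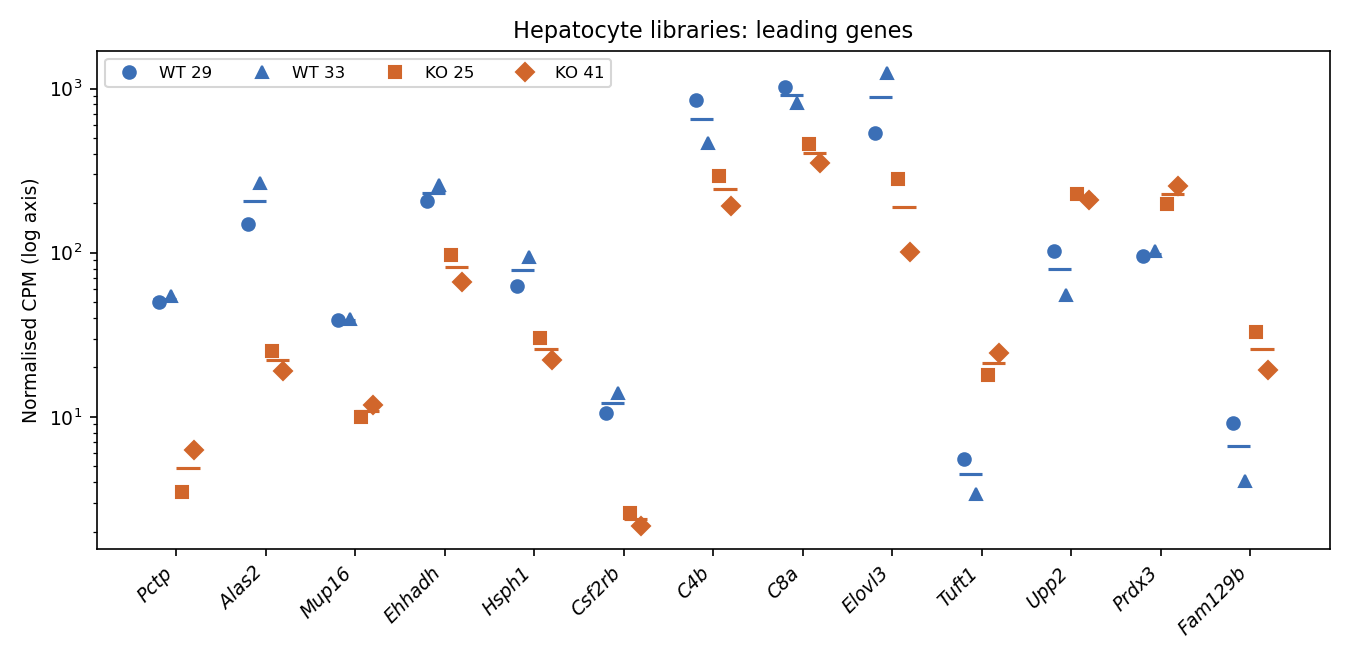
Normalised CPM (log axis) of 13 genes in the 4 hepatocyte libraries, blue for the WT label and orange for the KO label, with 1 point per library and a bar at each group's mean. Pctp had the widest gap, with WT values of 49.8 and 54.8 against 3.48 and 6.33, and in every gene shown the groups did not overlap.

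Among the 12 highest fold changes at a mean of at least 5 CPM, Gm6166, a processed pseudogene whose reads may belong to another gene, was at 0, 0, 4.24 and 9.92 normalised CPM, at least 36.5-fold higher under the KO label against a floor of 3 counts per library (DESeq2 adjusted p = 5.09e-05). Mterf2, a mitochondrial transcription termination factor family member, was at 1.21, 1.31, 5.25 and 6.54, and Aifm3 at 1.81, 1.38, 6.52 and 8.19, with both KO libraries alike. Other large fold changes rested mostly on 1 library. A1bg, a female-biased liver gene, was at 3.56, 3.52, 4.05 and 59.7 normalised CPM, so KO 41 alone was high, and its log2 fold change of 3.16 was 0.20 without that library. Dio1, the type 1 deiodinase that activates thyroid hormone, was at 6.10, 103, 1.08 and 1.44, high in WT 33. B4galnt1, a ganglioside synthase, was at 1.99, 45.7, 0 and 0, at least 118-fold higher under the WT label against a floor of 3 counts per library. Ankrd37, a target of the hypoxia response, was at 0.181, 0.414, 2.34 and 11.4.

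Lipid genes divided by direction. Fatty acid oxidation and ketogenesis, a list of 32 genes, had 5 members lower (against 4.69% of all genes) and 0 higher (2.42%) at an unadjusted p under 0.05, and its median log2 fold change was -0.13 against -0.02 for all genes. Cpt1a, the carnitine palmitoyltransferase that admits long-chain fatty acids to mitochondria, was at 185, 237, 109 and 92.6 normalised CPM (log2 fold change -1.07 ± 0.23, DESeq2 adjusted p = 0.0224). Acsl1, which activates fatty acids with coenzyme A, was at 1330, 2125, 970 and 873. Pdk4, the kinase that shuts off pyruvate dehydrogenase in fasting, was at 19.6, 58.4, 12.4 and 14.9. The abundant Fabp1, the liver fatty acid binding protein, did not share the order and was at 3330, 5369, 3979 and 6642. Without each library in turn, the median of the list ran from -0.40 to 0.29, so its sign rested on single libraries.

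Cholesterol synthesis was higher under the KO label in most of its genes. Of 24 members, 21 had a positive log2 fold change and 15 did not overlap, all with the KO values above (against 19.9% of all genes). At an unadjusted p under 0.05, 5 were higher (against 2.42% of all genes) and 0 lower (4.69%). The median was 0.45, and 0.33 to 0.83 without each library. Fdft1, the squalene synthase that commits farnesyl units to sterols, was at 145, 103, 274 and 240 normalised CPM, a log2 fold change of 1.05 ± 0.25 (edgeR adjusted p = 0.700, DESeq2 adjusted p = 0.0251). Its 2 KO values were well above the WT values. Msmo1, a sterol C4-methyl oxidase, was at 151, 119, 253 and 198. Mvk, mevalonate kinase, was at 43.7, 32.5, 82.0 and 51.5, and Lss, lanosterol synthase, at 86.0, 60.6, 198 and 95.8. Dhcr7, which makes the last step to cholesterol in one branch, was at 150, 103, 487 and 153, so the second KO library lay within 3 CPM of the first WT library. The regulator Srebf2 had a log2 fold change of -0.47, with overlap.

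The promoters of Mvk, Lss and Msmo1 are shown because these are members at an unadjusted p under 0.05 with a single start in the RefSeq table (build GRCm38.p6), which held 16 of the 24 list members and no entry for Fdft1. Each run gives the 250 bases before the transcription start, with capitals marking the CCAAT box, CCAAT or its complement ATTGG on either strand, and, for Msmo1, also the sterol response element-like match to TCACNCCA.
Mvk promoter, chr5:114444019-114444268, plus strand: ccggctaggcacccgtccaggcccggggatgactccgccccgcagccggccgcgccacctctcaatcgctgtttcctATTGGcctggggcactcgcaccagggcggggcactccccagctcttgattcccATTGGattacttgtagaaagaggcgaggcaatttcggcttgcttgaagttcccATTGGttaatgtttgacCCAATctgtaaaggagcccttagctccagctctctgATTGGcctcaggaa
Lss promoter, chr10:76531355-76531604, plus strand: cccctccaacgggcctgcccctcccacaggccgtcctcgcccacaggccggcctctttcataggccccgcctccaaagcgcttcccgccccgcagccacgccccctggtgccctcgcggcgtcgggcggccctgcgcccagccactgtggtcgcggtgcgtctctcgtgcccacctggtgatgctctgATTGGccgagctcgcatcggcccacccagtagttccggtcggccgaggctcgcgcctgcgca
Msmo1 promoter, chr8:64733579-64733828, minus strand: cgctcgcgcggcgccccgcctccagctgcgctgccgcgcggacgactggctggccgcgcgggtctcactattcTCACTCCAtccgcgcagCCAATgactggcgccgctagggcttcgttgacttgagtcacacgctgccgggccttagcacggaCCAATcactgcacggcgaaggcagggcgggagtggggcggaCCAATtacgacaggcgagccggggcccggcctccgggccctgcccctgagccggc

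Mvk held 5 such boxes, Lss 1 and Msmo1 3 beside 1 sterol response element-like match, and these did not overlap. A CCAAT box was in the window of 16 of 16 cholesterol genes in the table, 10 of 23 fatty acid oxidation genes and 37.5% of all 27025 genes, counting any start of a gene. TCACNCCA was in 3 of 16 cholesterol genes, 3 of 23 fatty acid oxidation genes and 4.2% of all genes. The heat shock element-like GAANNTTC and the E-box CACGTG were also searched in these windows, on both strands, after the values were seen, and were in 2 and 4 of the 16 cholesterol genes, against 7.73% and 6.86% of all genes. Matches describe the letters, not bound sites.

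Fatty acid synthesis gave mixed directions in its 20 genes. Scd1, the desaturase that makes oleate, was at 2729, 1123, 1007 and 610 normalised CPM, and Acss2, which makes acetyl-CoA from acetate, was at 268, 155, 539 and 336. Each passed an unadjusted p of 0.05, in opposite directions. Of the 22 bile acid genes tested, 1 was higher (against 2.42% of all genes) and 3 lower (4.69%) at that threshold, with a list median of 0.00. Klb (the FGF15 co-receptor) was the higher gene, and the transporters Abcb4, Abcc3 and Slco1a1 were the lower ones. Abcb4, the phosphatidylcholine floppase of the canalicular membrane, was at 101, 121, 59.1 and 61.5.

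**Figure D2:**
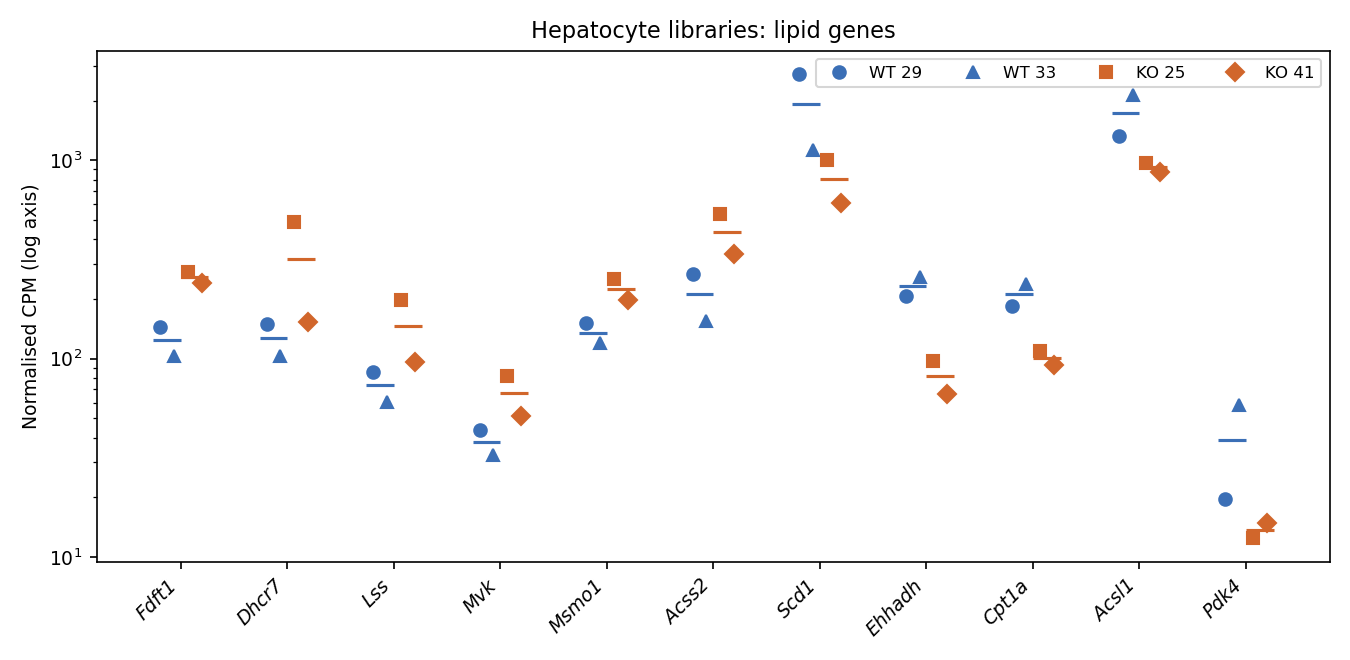
Normalised CPM (log axis) of 11 lipid genes in the hepatocyte libraries, 1 point per library with a bar at each group's mean. Cholesterol synthesis genes from Fdft1 to Msmo1 had both KO points above both WT points, whereas Ehhadh, Cpt1a, Acsl1 and Pdk4 had them below.

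Urea cycle and amino acid catabolism had 24 of 27 genes with a positive log2 fold change and a median of 0.21, which was 0.23 to 0.34 without each library. Both KO values lay above both WT values for 10 of them (against 19.9% of all genes) and below for 0 (20.9%). At an unadjusted p under 0.05 there were 2 higher (against 2.42% of all genes) and 0 lower (4.69%). Ass1, argininosuccinate synthase of the urea cycle, was at 2670, 2102, 4220 and 3039 normalised CPM, and Agxt, which detoxifies glyoxylate, at 657, 800, 1056 and 1126. In glucose metabolism (20 genes, median 0.14), the gluconeogenic pyruvate carboxylase Pcx was lower at 649, 599, 447 and 335, while the coactivator Ppargc1a was higher at 9.11, 7.46, 14.4 and 14.1. Pck1 and G6pc, which govern glucose output, overlapped. The 17 periportal and 18 pericentral genes had medians of 0.08 and 0.13, and only Tbx3 and Rnf43, both pericentral, were lower and only Ass1 higher at an unadjusted p under 0.05.

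Xenobiotic enzymes lay in both directions, 6 higher (against 2.42% of all genes) and 3 lower (4.69%) of 44 tested at that threshold. Cyp3a25 was at 193, 269, 444 and 443 normalised CPM and the glutathione transferase Gstm3 at 41.4, 44.5, 85.9 and 73.2. The aldehyde oxidases Aox1 and Aox3 were lower, Aox1 at 46.1, 46.5, 25.4 and 14.7. The most abundant P450 of the list, Cyp2e1, was at 4342, 6448, 3363 and 9177, with KO values on both sides of the WT values.

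All 12 male-biased genes had negative log2 fold changes, 4 of them at an unadjusted p under 0.05 (background 4.69%), with a median of -0.72 and -1.16 to -0.30 without each library. Elovl3, a fatty acid elongase higher in male liver, was at 538, 1237, 281 and 101 normalised CPM, a log2 fold change of -2.22 ± 0.60 (edgeR adjusted p = 0.700). Ugt2b1 and the organic anion transporter Slco1a1 were lower at 751, 986, 537 and 527, and at 325, 298, 214 and 187. Of the 15 female-biased genes 9 were tested, 6 with positive and 3 with negative log2 fold changes, and the median of 0.38 ran from 0.12 to 2.28 without each library. At an unadjusted p under 0.05, 3 were higher (against 2.42% of all genes) and 0 lower. Cyp2b9 was at 119, 33.0, 196 and 287, and Cyp2b13 and A1bg were high in KO 41 alone. The 3 negative values were -1.04 for Cyp17a1, -0.66 for Acot3 and -0.45 for Cyp2a4, each with overlap.

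Plasma protein genes lower under the KO label included 5 complement genes and the anticoagulant protein S (Pros1). Of 33 complement and coagulation genes tested, 6 were lower (against 4.69% of all genes) and 0 higher (2.42%) at an unadjusted p under 0.05. The list lay in both directions, with 11 genes higher (against 19.9% of all genes) and 11 lower (20.9%) without overlap and a median of 0.06. C8a, the alpha chain of the membrane attack component C8, was at 1026, 813, 458 and 352 normalised CPM (log2 fold change -1.18 ± 0.23, DESeq2 adjusted p = 0.00246). C4b was at 849, 463, 295 and 193 (DESeq2 adjusted p = 0.00562), and the central component C3 at 3403, 2102, 1824 and 1364. Of the 29 acute phase genes, Socs3 and Cp were lower and Mt2 higher at that threshold, and the fibrinogen chains Fga, Fgb and Fgg overlapped. Prothrombin (F2) and antithrombin (Serpinc1) had log2 fold changes of 0.21 and 0.22.

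**Figure D3:**
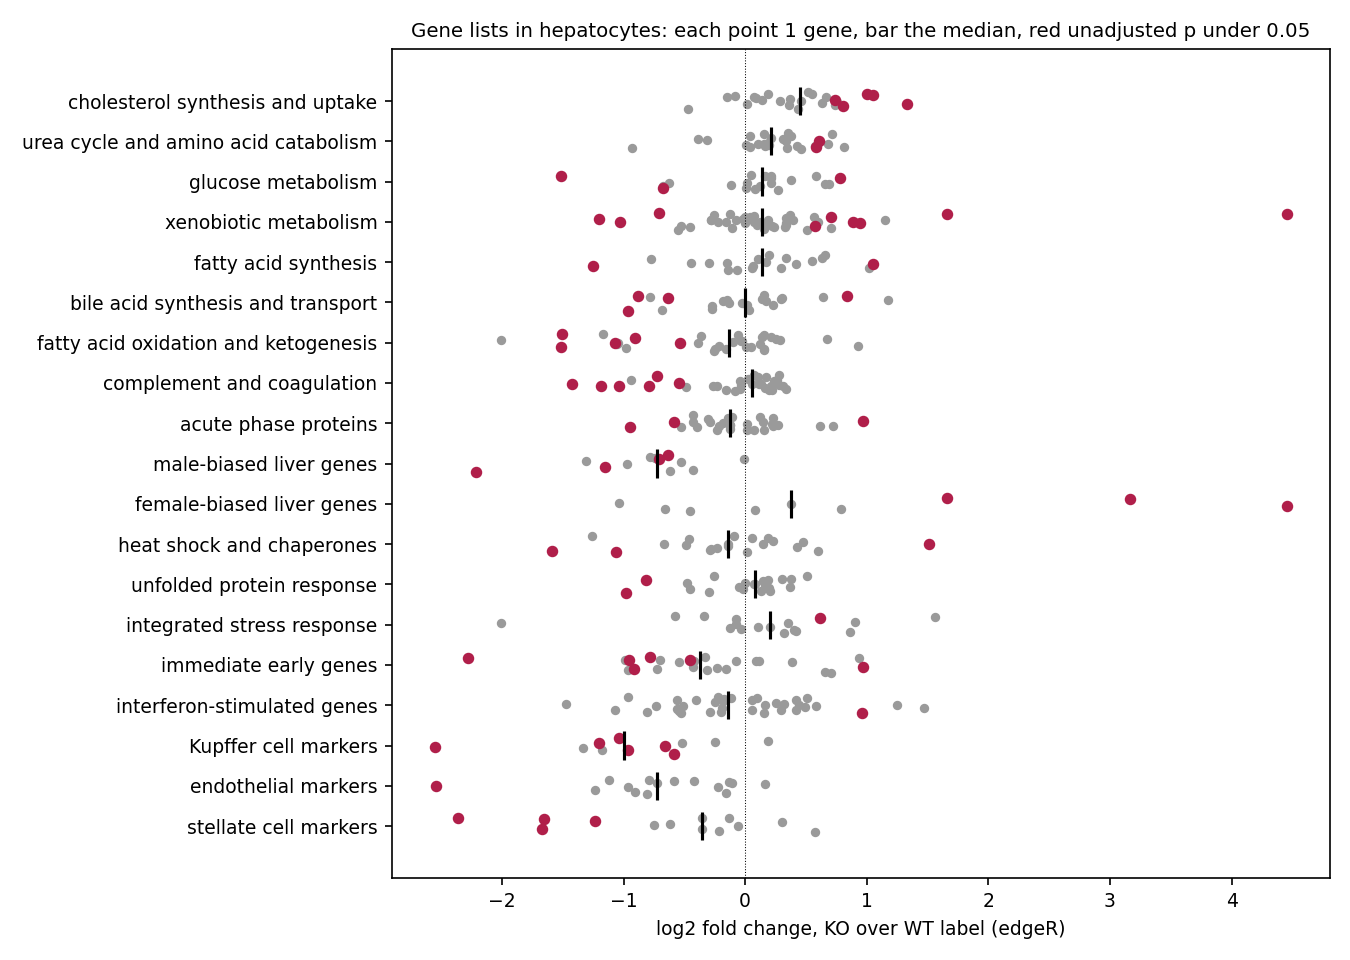
log2 fold change of KO over WT label for each tested gene of 19 lists, red for an unadjusted p under 0.05, with a black bar at the median of the list. Cholesterol genes sit mostly right of 0 (median 0.45), male-biased genes and Kupffer cell markers left of it (medians -0.72 and -0.996), and most other medians lie between -0.4 and 0.4.

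Stress genes had few members past an unadjusted p of 0.05, which 2.42% of all genes passed as higher and 4.69% as lower. Of 21 chaperones, Hsph1 and Hspa4l were lower and Cryab higher, and the abundant Hsp90ab1 was at 816, 1191, 742 and 715 normalised CPM. Of 21 unfolded protein response genes, Hyou1 and Sel1l were lower while the ER chaperone Hspa5 was at 1581, 1315, 1433 and 2143, with overlap. Atf4, the transcription factor of the integrated stress response, was higher at 71.6, 62.2, 93.8 and 112, and its targets Ddit3 and Atf3 did not pass. Among 20 oxidative stress genes tested, Gstm3 was higher and Gclc and Abcc3 lower. No p53 target, mitochondrially encoded gene or gene of the BMP and iron list passed, and the median of the 13 mitochondrial genes was -0.03. Of 15 hypoxia genes tested Ankrd37 was higher and P4ha2 lower, of 20 clock genes Per1 was higher, and of 22 hepatocyte transcription factors Tbx3 was lower.

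Immediate early genes, which respond within minutes to cell isolation and other stimuli, had 5 members lower (against 4.69% of all genes) and 1 higher (2.42%) of 24 tested at an unadjusted p under 0.05, with a median of -0.37. Fos was at 1434, 1402, 939 and 521 normalised CPM, Gadd45g at 379, 358, 202 and 226, and Zfp36 at 444, 552, 330 and 198, all without overlap, whereas Klf6 was higher at 44.6, 37.8, 63.0 and 98.0. The NF-kB list of 15 had 2 members lower (against 4.69% of all genes), Tnf at 6.22, 8.77, 2.09 and 3.38 and Tnfaip3, and 0 higher (2.42%). Of 36 interferon-stimulated genes tested, Oasl1 alone passed, higher at 13.2, 9.74, 23.0 and 21.9.

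Blood cell genes were scarce in all 4 libraries. Of 15 erythroid genes in the files, 7 had no read in any hepatocyte library and 5 were tested, and Alas2 was the single member at an unadjusted p under 0.05. The beta globin gene Hbb-bs was at 3.68, 2.21, 2.53 and 4.74 normalised CPM, with overlap, and the 4 globin genes summed to 4.57 to 8.63 CPM against 6.85 to 705 CPM in the other libraries, so globin did not accompany Alas2. Of 6 neutrophil genes tested, 6 had positive log2 fold changes, with a median of 1.17, and 0 had an unadjusted p under 0.05. Without overlap, 3 were higher (against 19.9% of all genes) and 0 lower (20.9%). Neutrophil S100a8 was at 1.03, 0.622, 3.92 and 1.37, highest in KO 25. The neutrophil list summed to 401 to 451 CPM almost entirely through Wfdc21, which was at 402 to 444 in every library. The B cell gene Ighm, the heavy chain of IgM, was at 5.01, 3.52, 15.6 and 6.90, higher under the KO label (log2 fold change 1.40 ± 0.49), while T and NK cell genes summed to 3.37 to 8.96 CPM and platelet genes to 2.86 to 6.45 CPM per library.

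Markers of Kupffer, endothelial and stellate cells were low and lower under the KO label, whereas biliary markers were not lower. Of 7 biliary markers tested, 6 had positive log2 fold changes, with a median of 0.47. Without overlap, 4 were higher (against 19.9% of all genes) and 0 lower (20.9%), and the list summed to 137, 135, 162 and 165 CPM. Kupffer cell markers had 11 of 12 members with negative log2 fold changes, 6 of them at an unadjusted p under 0.05 (against 4.69% of all genes), and a median of -0.996 that ran from -1.14 to -0.18 without each library. Cd5l, a macrophage-secreted protein, was at 82.5, 54.0, 34.0 and 32.6 normalised CPM, and the complement gene C1qa at 29.3, 25.6, 15.8 and 12.4. Marco was high in WT 29 alone (51.1, 4.63, 3.42 and 6.11), and without that library its log2 fold change was 0.037. Endothelial markers had 14 of 15 and stellate markers 11 of 13 negative values, with medians of -0.73 and -0.35 that ran from -0.82 to -0.35 and from -1.03 to -0.18 without each library. Summed CPM ranged from 261 to 495 under the WT label and from 173 to 234 under the KO label for Kupffer markers, from 205 to 241 and from 137 to 192 for endothelial markers, and from 227 to 230 and from 120 to 198 for stellate markers. Relative to their own WT cells the median marker stood at 0.107% to 0.751%. The share of these cells in the lower values of immune and complement genes was not tested, and in bulk libraries fewer cells of a type and less RNA per cell cannot be told apart. Without the genes of these lists and of blood cells edgeR called 0 genes, as it did with them. This count therefore cannot measure the part of other cells.

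**Figure D4:**
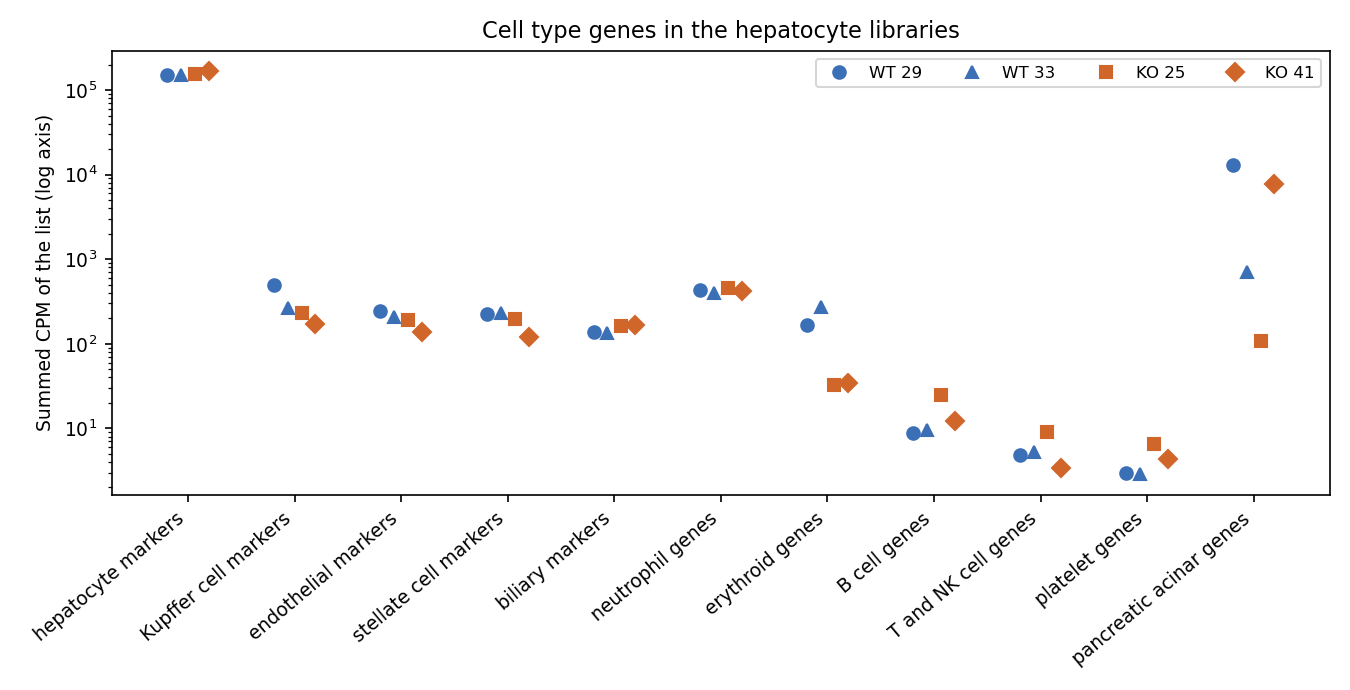
Summed CPM (log axis) of cell type gene lists in each hepatocyte library, with colours for the label and shapes for the library. Kupffer, endothelial and stellate sums lie below those of the hepatocyte markers by orders of magnitude and were lower under the KO label, whereas pancreatic genes were high in WT 29 and KO 41 (13016 and 7768 CPM). Biliary sums were not lower, at 137 and 135 CPM under the WT label and 162 and 165 under the KO label.

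The KO effect in hepatocytes was then set against the mean effect in the other 3 cell types. No gene of 17214 tested had a difference past an adjusted p of 0.05 in edgeR (0% called, smallest adjusted p 0.101), 1256 (7.3%) had an unadjusted p under 0.05, and DESeq2 called 178. For Pctp the hepatocyte log2 fold change minus the mean of the others was -1.96 (unadjusted edgeR p of 0.00944), and for Prdx3 it was 1.27 (0.036). Pctp was also lower under the KO label, without overlap, in stellate cells (3.71 and 6.33 against 0.553 and 0.83 CPM). The same order held in Kupffer cells (23.0 and 43.3 against 21.3 and 9.75 CPM). In endothelial cells Pctp was at 6.91 and 18.6 against 8.08 and 12.2 CPM, with overlap. For Ehhadh the difference was 0.10. Ehhadh was at 39.6 and 25.2 CPM in WT endothelial libraries and 5.22 and 2.99 in KO endothelial libraries, where Alb also differed, at 0.621% and 1.25% of reads against 0.153% and 0.094%, so hepatocyte RNA in the other libraries moved with that value and its part was not tested.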

How the data were processed

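Per the labels, hepatocytes were separated by density centrifugation or sorting. The sample labels name a stranded mRNA kit and the series design names Smart-seq2, which does not mark strand, so the library type is unsettled and reads of overlapping antisense genes may not be told apart. The authors deposited raw counts per gene, and the submitters' processing notes name Trimmomatic 0.32, HISAT2 2.1.0, HTSeq 0.9.1 and GRCm38; the annotation release and the strand setting are not given in the sources used here. Summary lines were dropped, leaving 47729 genes. The 4 hepatocyte libraries were fitted with edgeR (4.0.16) after its default filter on low counts, with TMM normalisation, a quasi-likelihood test and Benjamini-Hochberg adjustment at 0.05. Normalised CPM are counts per 1000000 of the TMM-scaled totals. Differences between cell types were tested over all 16 libraries. Alternatives used DESeq2, limma-voom, other filters and scalings, and leaving out each library. Named genes were Zeb2, genes called or smallest in p by DESeq2, the 12 highest and 12 lowest fold changes without overlap, list members at an unadjusted p under 0.05 or most abundant, and the 20 most variable. A few others were chosen after their values were seen, and some list members are not reported here. The lists and the comparison were chosen with earlier results of these data known. Scripts were tested on simulated data. Coordinates are from GENCODE M21, and promoters from RefSeq.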

Additional observations from a re-analysis of the deposited data

How the results depend on the processing

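No paired analysis was possible because the WT and KO hepatocyte libraries share no replicate number. The count of genes between labels, 0 in edgeR, was 31 with DESeq2 and 227 without a filter on low counts, where the count at an unadjusted p under 0.05 was 1547 against 821. Leaving out each library gave 0 to 55 genes, and 613 to 1392 at an unadjusted p under 0.05, with 55 and 1392 without KO 25. For the difference from the other cell types the count was 178 with DESeq2 and 687 without a filter, where 2132 had an unadjusted p under 0.05. The cause was not tested. The count stayed at 0 with limma-voom, RLE scaling, a minimum of 10 counts, all 16 libraries, thinning, an adjusted p of 0.1, and, as an alternative added after seeing the data, without pancreatic genes. Of 104 genes followed over 13 alternatives, 103 kept their direction, and Marco ran from -3.42 without WT 33 to 0.037 without WT 29. The genes followed were chosen mainly for a low p or for not overlapping in these same libraries. Their direction was therefore largely fixed by the choice, and its persistence is no test of stability. Of 495 list medians, 444 moved by less than the spread between replicates. With 2 libraries per label, an exact permutation test of a single gene cannot go below p = 0.333.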

Other observations

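The liver genes Crp and Mup5 followed neither label nor pancreatic RNA. Crp, the gene of C-reactive protein, was at 5.92, 375, 5.76 and 441 normalised CPM in WT 29, WT 33, KO 25 and KO 41, and Mup5 was at 2.47, 287, 2.85 and 504, both high in WT 33 and KO 41. Gm4788 was at 6.52, 280, 244 and 114, lower in WT 29 and KO 41, the libraries with high pancreatic RNA. These were chosen after their values were seen, and reads of the Mup family can be shared between paralogs.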
